A study of Mus musculus with 6 samples.

Results

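The 47 genes described here encode subunits of respiratory complexes II, III, IV and V and cytochrome c, 41 of them in the nucleus and 6 in the mitochondrial genome. They were chosen by symbol, with no threshold on their values, and are 47 of the 35411 genes that the deposited files cover. All 47 passed the filter on low counts, which kept 13928 genes. Fetal hearts of wild-type FVB/NJ mice, an inbred strain, were compared between 2 groups. Dams aged 10 weeks, 14 in the whole study, inhaled either filtered room air (sham) or an aerosol of engineered nano-TiO2 (titanium dioxide nanoparticles) in a whole-body chamber. The nano-TiO2 aerosol had a target of 12 mg/m3. In both groups, daily sessions of 360 minutes, 6 in all and not all on consecutive days, were spread over 8 days from gestational day 5. Hearts were taken at gestational day 15. Each of the 6 libraries, 3 per group, came from pooled hearts of male and female fetuses, and the labels do not name the litters that went into a pool, so the p-values cover the variation among pools and nothing wider. They are the input libraries, without antibody, of a study of m6A (a methyl mark on RNA), so they measure RNA abundance.

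Complex II, succinate dehydrogenase, feeds electrons from the citric acid cycle into ubiquinone. Complex III passes them to cytochrome c, complex IV (cytochrome c oxidase) passes them to oxygen, and complex V (ATP synthase) makes ATP from the proton gradient that complexes I, III and IV build. All subunits of complex II are nuclear, whereas complexes III, IV and V combine nuclear subunits with catalytic or proton-conducting cores from the mitochondrial genome. Heart and skeletal muscle of adult mice use their own forms of some complex IV subunits, Cox6a2, Cox7a1 and Cox8b, in place of the ubiquitous Cox6a1, Cox7a2 and Cox8a.

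Several libraries stood apart in markers of cells other than cardiac muscle. All 15 cardiomyocyte markers, among them Tnnt2, Actc1 and Myl7, were detected in every library, and their summed level ran from 41980 to 51440 TPM (a level per transcript length) in sham and from 49370 to 56820 TPM in nano-TiO2 hearts. Summed erythroid markers (11 of 11 detected) ran from 187400 to 369900 TPM in sham, highest in sham 2, and from 126400 to 203800 TPM in nano-TiO2 hearts, lowest in nano-TiO2 2. Summed hepatocyte markers (9 of 9 detected) reached 727 TPM in sham 2 and at most 62.0 TPM elsewhere. Summed lung epithelium markers (5 of 5 detected) reached 2629 TPM in nano-TiO2 3 and 606 TPM in nano-TiO2 2, against 16.1 to 185 TPM in sham and 0.538 TPM in nano-TiO2 1. Fibroblast markers (6 of 6 detected) summed to 467 to 676 TPM in sham and 892 to 965 TPM in nano-TiO2 hearts, and endothelial markers (6 of 6 detected) to 89.5 to 126 TPM and 151 to 192 TPM, without overlap. In single markers, 3 of the 6 fibroblast, 5 of the 6 endothelial and 6 of the 15 cardiomyocyte genes were higher in TPM in all nano-TiO2 libraries than in all sham libraries, as were 47.2% of all genes, whose median on the log2(TPM + 1) scale stood at 0.47. Skeletal muscle markers (8 of 8 detected), which matter here because that tissue shares the heart isoforms, summed to 8.89 to 15.8 TPM in sham and 11.6 to 44.4 TPM in nano-TiO2 hearts. Brown fat shares some of these isoforms as well: of its 4 markers, Ucp1 was at 0 in all 6 libraries, and the sums ran from 11.9 to 18.6 TPM in sham and from 14.9 to 20.5 TPM in nano-TiO2 hearts. The part of these cells in the results below was not tested, and in bulk samples fewer cells of a type and less RNA per cell cannot be told apart.

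The promoters of 5 nuclear subunit genes are shown to set the upstream sequence of 3 ubiquitous subunits beside that of 2 heart isoforms of complex IV; no difference in response between the 2 kinds was shown (the ratios of heart to ubiquitous isoform are given with the complex IV genes). Each line gives 250 bases before and 50 bases after the start of a gene from RefSeq on GRCm38.p6, 5′ to 3′ on the strand of the gene. Capitals mark matches, on either strand, to the site of nuclear respiratory factor 1 (NRF1), searched by its 10-letter consensus, and to CCGGAAG, the core bound by ETS factors such as GABP. Cox6a1 (chr5:115348909-115349208, minus strand) and Atp5k (chr5:108434350-108434649, minus strand) hold both motifs, and Cox8a (chr19:7217567-7217866, minus strand) holds the ETS core only. The heart isoforms Cox7a1 (chr7:30183921-30184220, plus strand) and Cox8b (chr7:140900397-140900696, minus strand) hold neither.
Cox6a1: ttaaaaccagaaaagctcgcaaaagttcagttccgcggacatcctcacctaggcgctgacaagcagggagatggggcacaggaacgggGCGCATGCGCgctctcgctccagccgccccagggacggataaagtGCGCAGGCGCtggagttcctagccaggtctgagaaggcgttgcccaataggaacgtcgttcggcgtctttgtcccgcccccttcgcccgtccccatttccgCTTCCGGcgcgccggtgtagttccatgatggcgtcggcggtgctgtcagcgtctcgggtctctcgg
Atp5k: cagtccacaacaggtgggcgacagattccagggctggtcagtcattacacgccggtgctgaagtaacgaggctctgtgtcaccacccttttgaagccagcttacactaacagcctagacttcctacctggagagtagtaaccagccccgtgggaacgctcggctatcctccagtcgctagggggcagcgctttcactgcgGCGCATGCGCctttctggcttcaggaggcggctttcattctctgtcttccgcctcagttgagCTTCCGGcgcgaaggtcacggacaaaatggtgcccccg
Cox8a: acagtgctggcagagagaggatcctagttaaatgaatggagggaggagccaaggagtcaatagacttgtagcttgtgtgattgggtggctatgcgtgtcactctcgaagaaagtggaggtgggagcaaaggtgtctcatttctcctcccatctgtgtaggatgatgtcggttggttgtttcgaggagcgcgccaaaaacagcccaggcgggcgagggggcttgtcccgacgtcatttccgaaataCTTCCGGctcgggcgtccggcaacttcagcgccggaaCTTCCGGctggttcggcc
Cox7a1: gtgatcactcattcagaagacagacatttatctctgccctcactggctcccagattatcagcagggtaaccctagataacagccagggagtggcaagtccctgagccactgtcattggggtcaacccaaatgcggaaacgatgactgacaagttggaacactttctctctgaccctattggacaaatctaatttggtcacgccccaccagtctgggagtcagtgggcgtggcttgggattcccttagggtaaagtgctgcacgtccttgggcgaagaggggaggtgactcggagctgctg
Cox8b: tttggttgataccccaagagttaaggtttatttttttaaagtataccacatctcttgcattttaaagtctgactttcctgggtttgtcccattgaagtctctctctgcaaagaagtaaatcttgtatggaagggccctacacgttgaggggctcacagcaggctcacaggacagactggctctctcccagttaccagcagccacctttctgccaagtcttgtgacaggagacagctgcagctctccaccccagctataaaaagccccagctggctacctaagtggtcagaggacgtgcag

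In the promoter table, 32 of the 41 nuclear members had an entry. Not in the table were Sdhc, Uqcrc2, Uqcrb, Uqcrq, Cyc1, Cox4i1, Cox6a2, Cox6c and Atp5a1. The NRF1 letters were in 10 of the 32 windows (31.3%) and in 5.19% of the windows of 27025 genes, and the ETS letters were in 12 (37.5%) and in 9.93%. Sdhd, Cox6a1, Atp5h and Atp5k held both, and 14 windows, the ubiquitous Cox7a2 among them, held neither. The site of MEF2, a muscle transcription factor, matched in none of the 32 windows and in 3.70% of all. Among the windows shown, Cox7a1 held 7 CG dinucleotides and Cox8b 2, against 32 in Cox6a1 and 19 each in Atp5k and Cox8a. The windows not shown ran from 5 in Cox7b, which is not one of the heart isoforms, to 43 in Atp5j. The median log2 fold change between groups, described next, was -0.67 over the 10 members with the NRF1 letters, -0.75 over the 12 with the ETS letters and -0.70 over the 14 with neither, and 6, 8 and 9 of them fell. A match describes the letters in these windows and not a bound factor.

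Relative to the typical gene, RNA of most subunits of complexes III, IV and V was lower in nano-TiO2 hearts, and none of the 4 complex II genes passed edgeR's test. Of the 47 genes, 27 fell and 0 rose (0 also at an unadjusted p under 0.05) by edgeR's quasi-likelihood test with Benjamini-Hochberg adjustment over 13928 genes, at an adjusted p under 0.05. Among all genes tested, 12.8% fell and 15.5% rose. The falls comprised 6 of 9 nuclear subunits of complex III, 9 of 13 of complex IV, 10 of 14 of complex V and 2 of the 6 mitochondrially encoded genes, mt-Co3 and mt-Atp8. Cytochrome c (Cycs) did not pass. The median log2 fold change of nano-TiO2 over sham was -0.65 over the 41 nuclear and -0.75 over the 6 mitochondrial members, and -0.01 over all genes. In read counts scaled to library size by TMM (CPM), 33 of 47 members had all 3 nano-TiO2 libraries below all 3 sham libraries, which held for 22.4% of all genes, and 0 had them all above, which held for 23.3%. DESeq2 on the same counts called 34 members lower and 0 higher, where 17.3% of all genes were lower and 18.6% higher. The 7 that it added were Sdhb, Uqcrq, Cox5a, Atp5h, mt-Co1, mt-Co2 and mt-Atp6. Nano-TiO2 2 was the lowest library for 40 of 41 nuclear and all 6 mitochondrial members, and sham 3 was the highest for 36 and 5 of them.

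**Figure D1:**
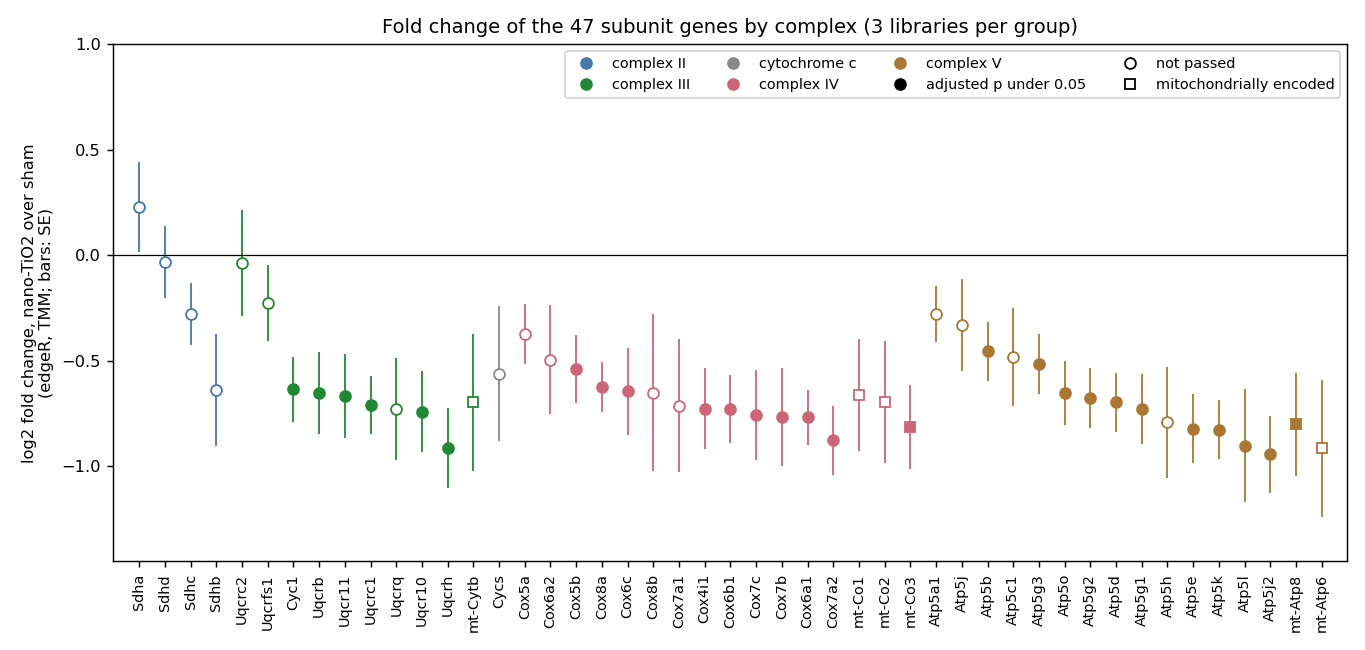
Log2 fold change of nano-TiO2 over sham (y axis, TMM scaling) for each of the 47 subunit genes, grouped by complex along the x axis; bars are standard errors over 3 libraries per group, filled points passed an adjusted p under 0.05 and squares are mitochondrially encoded. Nuclear subunits of complex IV lie between -0.88 and -0.37, those of complex V between -0.94 and -0.28 and those of complex II between -0.64 and 0.23; with library totals as scaling, 7 members that are below 0 here lie above 0.

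These falls are relative to the other genes, and their size depended on the scaling. With library totals alone as scaling, the median gene stood at 0.41 on the log2 scale, the nuclear members at -0.26 and the mitochondrial members at -0.34. Under that scaling 1 member fell, Atp5j2 (log2 fold change -0.54, edgeR adjusted p = 0.0359), and 1 rose, Sdha (0.63, adjusted p = 0.0306), where 0.359% of all genes fell and 30.7% rose. With limma on log2(TPM + 1), the median gene stood at 0.47 and the nuclear members at -0.01. Then 0 members fell and 3 rose, Sdha, Sdhd and Uqcrc2, where 0.134% of all genes fell and 38% rose. All 27 members that fell on TMM scaling stayed below 0 with library totals, and 7 of them (Cyc1, Cox5b, Cox8a, Atp5b, Atp5g2, Atp5g3 and Atp5o) lay above 0 on the TPM scale. In TPM, 0 members had groups that did not overlap in the lower direction and 6 in the higher direction (Sdha, Sdhc, Sdhd, Cox5a, Atp5a1 and Atp5b), against 0.31% and 47.2% of all genes.

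**Figure D2:**
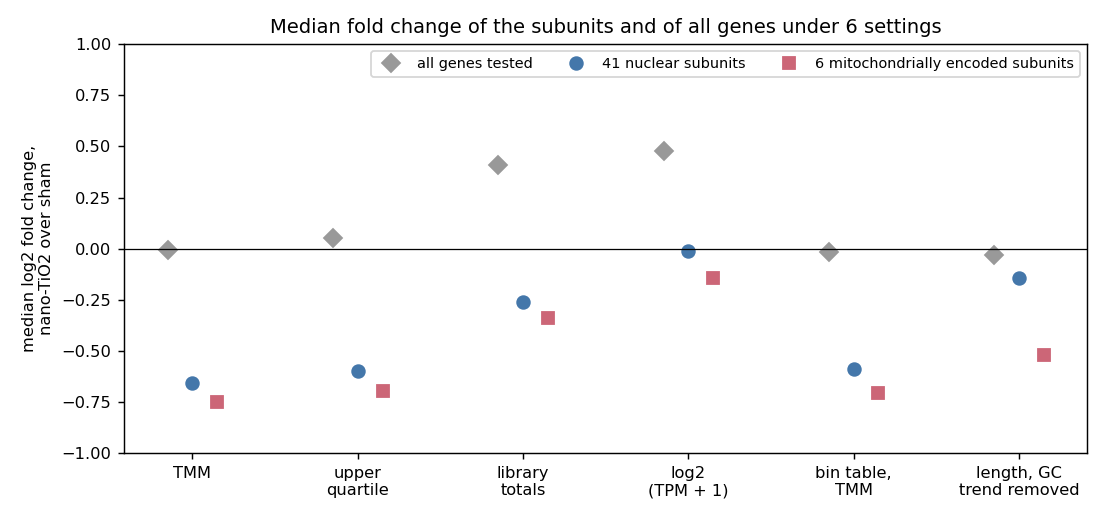
Median log2 fold change of nano-TiO2 over sham (y axis) of all genes tested, the 41 nuclear subunits and the 6 mitochondrially encoded subunits under 6 settings (x axis). The subunits lie below the median gene in each of the 6, the nuclear ones at -0.65 on TMM scaling and at -0.14 after removal of length and GC trends, while the median gene lies between -0.03 and 0.47.

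The count also depended on single libraries. Leaving out sham 2 gave 9 members lower, where 2.52% of all genes were lower, and leaving out sham 3 gave 15, where 8.04% were. Leaving out nano-TiO2 1 gave 14 and leaving out nano-TiO2 3 gave 13, where 3.04% and 3.89% of all genes were lower. Leaving out sham 1 gave 23 and leaving out nano-TiO2 2 gave 20, where 3.93% and 14.6% of all genes were lower. The share of all genes that was lower thus fell from 12.8% in each of these fits except the one without nano-TiO2 2. When sham 2 and nano-TiO2 3 were both left out, 0 of 14019 genes were called. These are the libraries highest in hepatocyte and lung markers. In that last fit, with 2 libraries per group, the median of the members was -0.71 and 27 members had an unadjusted p under 0.05. The share of all genes at an unadjusted p under 0.05 was not counted, here or elsewhere, so such counts have no background beside them. Uqcrc1, Uqcrh, Cox6a1, Cox7a2, Atp5e, Atp5g2, Atp5j2 and Atp5k fell in all 6 fits that left out 1 library, whereas Cox6c and Atp5b fell in none of them.

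None of the 4 genes of complex II passed edgeR's test on TMM scaling, whereas DESeq2 called 1 of them, Sdhb, lower. Sdha, the flavoprotein that oxidises succinate, had 435, 407 and 619 CPM in sham pools 1 to 3 and 710.2, 452 and 549 CPM in nano-TiO2 pools 1 to 3. The groups overlapped, and Sdha was the only member with a fold change above 0 on TMM scaling (0.23 ± 0.21 (SE), edgeR adjusted p = 0.448). Sdhd (-0.03) and Sdhc (-0.28), the membrane anchors, and the iron-sulfur subunit Sdhb (-0.64, edgeR adjusted p = 0.101, DESeq2 adjusted p = 0.0434) did not pass the test either, and Sdhc and Sdhd lay above 0 with library totals. In TPM, Sdha stood at 137 ± 43 TPM in sham and 248 ± 34.4 TPM in nano-TiO2 hearts (SD, n = 3 each), with limma's adjusted p at 0.0027 on log2(TPM + 1). The 4 genes summed to 2739 ± 830.3 TPM in sham and 3254 ± 284 TPM in nano-TiO2 hearts (SD, n = 3 each).

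In complex III, the core proteins are Uqcrc1 and Uqcrc2. Uqcrc1, the core protein 1, had 2489, 2528 and 3115 CPM in sham pools 1 to 3 and 1729, 1526 and 1715 CPM in nano-TiO2 pools 1 to 3. All nano-TiO2 libraries were below all sham libraries, and Uqcrc1 fell, at -0.71 ± 0.14 (SE) on the log2 scale with an edgeR adjusted p of 0.0108. Its partner Uqcrc2 (-0.04, adjusted p = 0.923) did not pass, lay above 0 with library totals and rose in TPM, with 209 ± 78.3 TPM in sham and 303 ± 46.1 TPM in nano-TiO2 hearts (SD, n = 3 each), with limma's adjusted p at 0.048.

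Of the nuclear redox subunits, Cyc1 fell and Uqcrfs1 did not pass. Cyc1, the cytochrome c1 that hands electrons to cytochrome c, had 1468, 1601 and 1869 CPM in sham pools 1 to 3 and 1140, 890.0 and 1150 CPM in nano-TiO2 pools 1 to 3. It fell by 0.64 on the log2 scale (SE 0.15, adjusted p = 0.0197) without overlap of the groups, and lay at 0.02 on the TPM scale. Uqcrfs1, the Rieske iron-sulfur protein, had 708, 719 and 959 CPM in sham pools 1 to 3 and 749, 539.7 and 753 CPM in nano-TiO2 pools 1 to 3. Its groups overlapped, and its log2 fold change was -0.23 ± 0.18 (SE) with an adjusted p of 0.374.

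Uqcrh and Uqcr10 had the lowest fold changes of the 9 nuclear subunits of complex III. Uqcrh, the acidic hinge protein, had 923, 1012 and 1343 CPM in sham pools 1 to 3 and 650.5, 461 and 630.0 CPM in nano-TiO2 pools 1 to 3. Uqcr10, a small subunit, had 978, 1021 and 1313 CPM in sham pools 1 to 3 and 787, 501 and 695 CPM in nano-TiO2 pools 1 to 3. Neither overlapped between groups, and their log2 fold changes were -0.91 ± 0.19 (SE) and -0.74 ± 0.19 (SE) with edgeR adjusted p of 0.0128 and 0.0253; Uqcr10 lay at 0.15 after removal of length and GC trends. Uqcrb (-0.65) and Uqcr11 (-0.67) also fell, and Uqcrq (-0.73, adjusted p = 0.0534) missed the threshold. The 9 nuclear subunits summed to 14680 ± 3301 TPM in sham and 14170 ± 1250 TPM in nano-TiO2 hearts (SD, n = 3 each).

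Cycs, the mobile cytochrome c, had 399.7, 490.5 and 864 CPM in sham pools 1 to 3 and 494, 262 and 434 CPM in nano-TiO2 pools 1 to 3. Sham 3 was the highest and nano-TiO2 2 the lowest, the groups overlapped, and the log2 fold change was -0.56 ± 0.32 (SE) with an edgeR adjusted p of 0.219. The annotated copies Gm10053 and Gm10108 share at least 80% of their own 31-base words with transcripts of Cycs. These copies held 246% as many estimated reads as Cycs itself, so the split between them and Cycs is uncertain. With the copies added the log2 fold change was -0.61 (adjusted p = 0.189). With the trend over length and GC removed, Cycs was the only member to fall (-1.0, adjusted p = 0.035), where 2.18% of all genes fell and 1.48% rose.

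In complex IV, 9 of 13 nuclear subunits fell, and the ubiquitous isoforms were among those with the smallest p. Cox4i1, the largest nuclear subunit and a site of allosteric control, had 3159, 3623 and 4531 CPM in sham pools 1 to 3 and 2424, 1786 and 2626 CPM in nano-TiO2 pools 1 to 3. The groups did not overlap, and Cox4i1 fell, at -0.73 ± 0.19 (SE) on the log2 scale (edgeR adjusted p = 0.026), against 0.05 after removal of length and GC trends. Cox6b1, which faces the intermembrane space, had 1160, 1337 and 1442 CPM in sham pools 1 to 3 and 888, 630.3 and 859.8 CPM in nano-TiO2 pools 1 to 3. It fell by 0.73 (SE 0.16, adjusted p = 0.0162) on the log2 scale, also without overlap. Of the other structural subunits, Cox7c (-0.76), Cox7b (-0.77), Cox6c (-0.64) and Cox5b (-0.54) fell with adjusted p from 0.0323 to 0.0477, Cox5b lying at 0.10 in TPM. Cox5a (-0.37, adjusted p = 0.0805) did not pass, lay below the sham range in CPM and above it in TPM, and lay at 0.04 with library totals.

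Each ubiquitous isoform with a heart counterpart fell on TMM scaling. Cox6a1 had 1294, 1528 and 1391 CPM in sham pools 1 to 3 and 865, 731 and 879.9 CPM in nano-TiO2 pools 1 to 3, a log2 fold change of -0.77 ± 0.13 (SE) and an adjusted p of 0.00847, the smallest in complex IV. Cox7a2 had 826, 875 and 1041 CPM in sham pools 1 to 3 and 579, 405 and 509 CPM in nano-TiO2 pools 1 to 3, a log2 fold change of -0.88 ± 0.16 (SE) and an adjusted p of 0.0099. Cox8a had 1015, 1084 and 978 CPM in sham pools 1 to 3 and 709.8, 609 and 677 CPM in nano-TiO2 pools 1 to 3, a log2 fold change of -0.62 ± 0.12 (SE) and an adjusted p of 0.0104. In all 3 genes every nano-TiO2 library was below every sham library, while Cox8a lay at 0.08 in TPM and Cox6a1 and Cox8a lay at 0.16 and 0.31 after removal of length and GC trends.

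None of the heart isoforms passed the test by edgeR or DESeq2. Cox6a2 had 506, 566 and 754 CPM in sham pools 1 to 3 and 530.1, 271 and 496 CPM in nano-TiO2 pools 1 to 3, with a log2 fold change of -0.49 ± 0.26 (SE) and an edgeR adjusted p of 0.18. Cox7a1 had 191, 202 and 322 CPM in sham pools 1 to 3 and 191, 83.5 and 161 CPM in nano-TiO2 pools 1 to 3, with a log2 fold change of -0.71 ± 0.32 (SE) and an adjusted p of 0.123 (DESeq2 adjusted p = 0.052). Cox8b had 111, 134 and 193 CPM in sham pools 1 to 3 and 126, 44.3 and 108 CPM in nano-TiO2 pools 1 to 3, with a log2 fold change of -0.65 ± 0.37 (SE) and an adjusted p of 0.223. In all 3 the groups overlapped, sham 3 was the highest library and nano-TiO2 2 the lowest.

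Levels per length put every heart isoform below its partner. The TPM ratio of Cox6a2 to Cox6a1 was 0.294, 0.274 and 0.402 in sham pools 1 to 3 and 0.459, 0.271 and 0.406 in nano-TiO2 pools 1 to 3. The ratio of Cox7a1 to Cox7a2 was 0.459, 0.469 and 0.617 in sham pools 1 to 3 and 0.646, 0.41 and 0.626 in nano-TiO2 pools 1 to 3, and that of Cox8b to Cox8a was 0.175, 0.202 and 0.32 in sham pools 1 to 3 and 0.284, 0.118 and 0.256 in nano-TiO2 pools 1 to 3. Nano-TiO2 2 was the lowest of the 6 libraries in each ratio, and the groups overlapped in all 3. Each ratio was lower in sham 1, sham 2 and nano-TiO2 2 than in sham 3, nano-TiO2 1 and nano-TiO2 3. The embryonic globin Hbb-y parted the same libraries, at 7078, 2831 and 8416 TPM against 165, 127 and 90.2 TPM in that order. Its link to the ratios was not tested. The mean log2 ratio differed between nano-TiO2 and sham by 0.21 for Cox6a2 (exact permutation test, 2-sided, p = 0.6), by 0.11 for Cox7a1 (exact p = 0.8) and by -0.13 for Cox8b (exact p = 0.8). Each exact p was 0.8 after Benjamini-Hochberg adjustment over the 3 ratios, and 3 libraries against 3 cannot give an exact p below 0.1. The Cox7a1 ratio changed sign without nano-TiO2 1 (-0.01), and the Cox8b ratio without sham 3 (0.12) or nano-TiO2 2 (0.26).

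**Figure D3:**
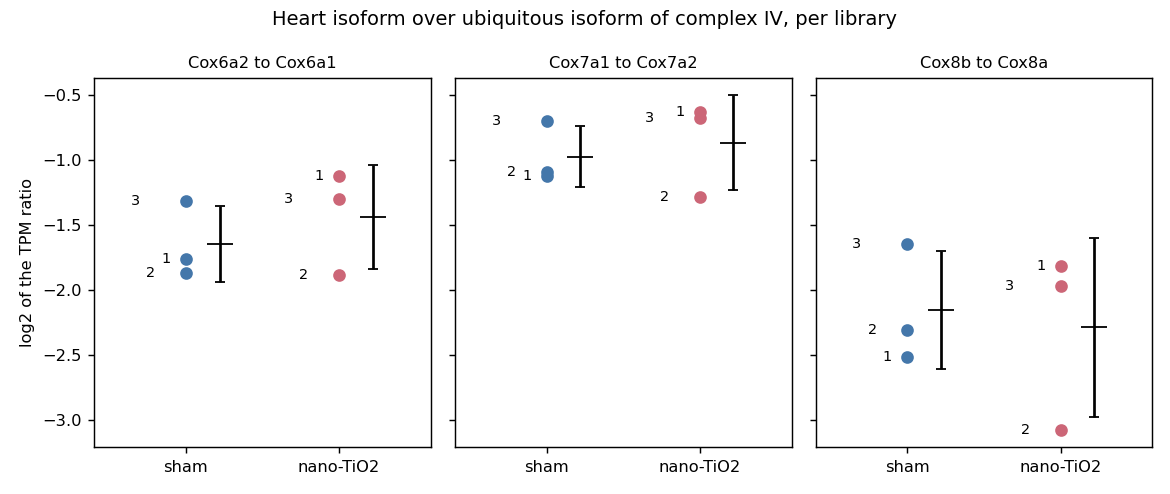
Log2 of the TPM ratio of heart to ubiquitous isoform (y axis) for 3 pairs of complex IV subunits in each library; points are numbered libraries, and the dashes with bars are group means and SD (n = 3 each). The groups overlap in every pair, and nano-TiO2 2 is the lowest point in each. In every pair, sham 1, sham 2 and nano-TiO2 2 lie below the other libraries.

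Over the 6 libraries, the genes outside the 47 whose log2(TPM + 1) followed Cox6a2 most closely, among 7820 genes with a mean of at least 5 TPM, were Lynx1 (Pearson's r 0.989), Hspb6 (0.983) and Tnni3 (0.981), the cardiac troponin I. Those closest to Cox7a1 were Gm7984 (0.994), Fabp4 (0.973) and Cox20 (0.970), and those closest to Cox8b were Rilp (0.981), Fabp7 (0.975) and Gm7984 (0.974). These are descriptions over 6 points that share library scaling.

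In complex V, 10 of 14 nuclear subunits fell, and fold changes ran from -0.28 in a subunit of the catalytic head to -0.94 in a small membrane subunit. Atp5b, the catalytic beta subunit, had 4890, 5036 and 5824 CPM in sham pools 1 to 3 and 4158, 3382 and 3951 CPM in nano-TiO2 pools 1 to 3. It fell by 0.46 (SE 0.14) on the log2 scale with an edgeR adjusted p of 0.0416, and was higher in TPM in all nano-TiO2 libraries than in any sham library, with 2976 ± 449.7 TPM in sham and 3590 ± 129 TPM in nano-TiO2 hearts (SD, n = 3 each). Atp5a1, the alpha subunit, had 2595, 2653 and 3007 CPM in sham pools 1 to 3 and 2462, 2008 and 2338 CPM in nano-TiO2 pools 1 to 3. Every nano-TiO2 library was below every sham library, but its log2 fold change of -0.28 ± 0.13 (SE) did not pass (adjusted p = 0.15) and was 0.13 with library totals.

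The lowest p-values in complex V belonged to subunits e, f, epsilon and delta. Atp5k, the membrane subunit e that holds ATP synthase dimers together, had 301, 335 and 348 CPM in sham pools 1 to 3 and 211, 158 and 186 CPM in nano-TiO2 pools 1 to 3. Atp5j2, the membrane subunit f, had 824, 855 and 1103 CPM in sham pools 1 to 3 and 569, 382 and 495 CPM in nano-TiO2 pools 1 to 3. Their log2 fold changes were -0.83 ± 0.14 (SE) and -0.94 ± 0.18 (SE), with adjusted p of 0.00845 and 0.0106, and neither overlapped between groups. Atp5e, the epsilon subunit of the central stalk, had 531, 544 and 637 CPM in sham pools 1 to 3 and 375, 253 and 341 CPM in nano-TiO2 pools 1 to 3. Atp5d, the delta subunit beside it, had 1143, 1318 and 1338 CPM in sham pools 1 to 3 and 826, 663 and 854 CPM in nano-TiO2 pools 1 to 3. Both fell without overlap, with log2 fold changes of -0.82 ± 0.17 (SE) and -0.70 ± 0.14 (SE) and adjusted p of 0.0119 and 0.012, and lay at 0.03 and 0.003 after removal of length and GC trends.

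The 3 genes Atp5g1, Atp5g2 and Atp5g3 encode the same mature protein, subunit c of the rotor ring. They fell by 0.73, 0.68 and 0.51 on the log2 scale, with adjusted p of 0.0167, 0.013 and 0.0303, and Atp5g2 and Atp5g3 lay at 0.02 and 0.14 in TPM. Atp5g1 was the most abundant of them per length (4177 ± 482 TPM in sham and 3972 ± 330.2 TPM in nano-TiO2 hearts (SD, n = 3 each)) and Atp5g2 the least (281 ± 59.7 TPM in sham and 280.5 ± 20.9 TPM in nano-TiO2 hearts (SD, n = 3 each)). Of the peripheral stalk and membrane subunits, Atp5o (-0.65, 0.02 in TPM) and Atp5l (-0.90) fell, and Atp5h (-0.79, adjusted p = 0.0551) and Atp5j (-0.33, adjusted p = 0.28, 0.08 with library totals) did not pass. Atp5c1, the gamma shaft, did not pass either (-0.48, adjusted p = 0.15). The 14 nuclear subunits summed to 27130 ± 5448 TPM in sham and 27120 ± 1622 TPM in nano-TiO2 hearts (SD, n = 3 each), and the 13 of complex IV to 23370 ± 4182 TPM in sham and 23090 ± 1615 TPM in nano-TiO2 hearts (SD, n = 3 each).

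The 6 mitochondrially encoded genes all had fold changes below 0 on TMM scaling, with library totals and in TPM. By edgeR 2 of them fell, by DESeq2 5 (all but mt-Cytb), and without nano-TiO2 3 edgeR called 0 (4 at an unadjusted p under 0.05). Of the catalytic core of complex IV, mt-Co3 had 5907, 5681 and 7538 CPM in sham pools 1 to 3 and 4313, 2718 and 3853 CPM in nano-TiO2 pools 1 to 3. It fell by 0.81 (SE 0.20, edgeR adjusted p = 0.0205) on the log2 scale without overlap. The haem and copper subunit mt-Co1 had 429, 585 and 763 CPM in sham pools 1 to 3 and 372, 260.3 and 490.0 CPM in nano-TiO2 pools 1 to 3. The copper subunit mt-Co2, which receives electrons from cytochrome c, had 2956, 4709 and 5008 CPM in sham pools 1 to 3 and 3192, 1604 and 3034 CPM in nano-TiO2 pools 1 to 3. Groups overlapped in both, with log2 fold changes of -0.66 ± 0.27 (SE) and -0.69 ± 0.29 (SE) and edgeR adjusted p of 0.0923 and 0.102 (DESeq2 adjusted p 0.0397 and 0.0396). The complex III subunit mt-Cytb, cytochrome b, had 5239, 7759 and 11500 CPM in sham pools 1 to 3 and 6515, 3230 and 5370 CPM in nano-TiO2 pools 1 to 3, overlapping, at -0.70 ± 0.33 (SE) on the log2 scale (adjusted p = 0.141).

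Of the complex V genes, mt-Atp6, the proton channel subunit a, had 1243, 2739 and 2327 CPM in sham pools 1 to 3 and 1460, 748 and 1138 CPM in nano-TiO2 pools 1 to 3. Sham 1 lay within the nano-TiO2 range, and the log2 fold change was -0.92 ± 0.32 (SE) with an edgeR adjusted p of 0.0662 (DESeq2 adjusted p = 0.0109). The small subunit mt-Atp8 had 711, 1008 and 1154 CPM in sham pools 1 to 3 and 691, 383 and 576 CPM in nano-TiO2 pools 1 to 3. Its groups did not overlap, and it fell by 0.80 (SE 0.24, adjusted p = 0.0412), against 0.14 after removal of length and GC trends. mt-Atp8 and mt-Atp6 overlap and share a transcript, so reads may be split between them.

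Several members have annotated copies that share at least 80% of the copy's own 31-base words with the member, and Salmon divided the reads between member and copy unevenly. Of the reads of mt-Co3 and its copy Gm28437 together, mt-Co3 received 59.6%, 43.8% and 52.4% in sham pools 1 to 3 and 58.7%, 55.9% and 56.6% in nano-TiO2 pools 1 to 3. Sham 2 had the lowest share. For mt-Atp6 and Gm10925 the share was 34.3%, 45.6% and 40.1% in sham pools 1 to 3 and 41.1%, 38.2% and 34.1% in nano-TiO2 pools 1 to 3. With copies added, mt-Co3 fell by 0.97 on the log2 scale (edgeR adjusted p = 0.0128), and mt-Atp6 stood at -0.80 (adjusted p = 0.0526). Of the reads given to Atp5g2 and Gm10175 together, Atp5g2 received 40.9%, 42.2% and 53.6% in sham pools 1 to 3 and 49.1%, 47.6% and 45.3% in nano-TiO2 pools 1 to 3 and its log2 fold change went from -0.68 to -0.73 with the copy added. With copies added to every such member, 27 members fell, where 12.8% of all genes did and 15.5% rose. The table of reads along genes gave -0.90 for mt-Co3 and -0.74 for mt-Atp6, and 24 of 47 members fell in it, where 11.2% of all genes did and 15.4% rose. In sham 1 that table held 188290 reads for mt-Co3 and 188084 for Gm28437, and 75158 for mt-Atp6 and 71972 for Gm10925. With gene and copy so close, it cannot settle how reads divide between them.

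**Figure D4:**
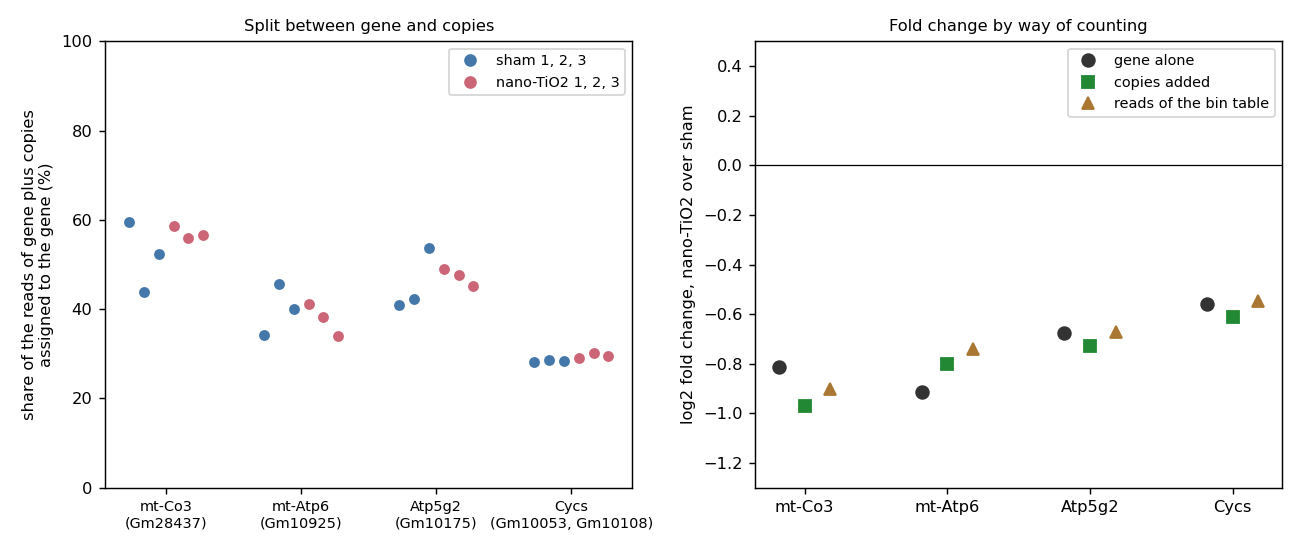
Left: share of the estimated reads of a gene plus its near-identical copies that was assigned to the gene (y axis, percent) in each of the 3 sham and 3 nano-TiO2 libraries, for 4 members with their copies in brackets. Right: log2 fold change of nano-TiO2 over sham (y axis, TMM scaling) from the gene alone, with copies added, and from the table of reads along genes; all points lie below 0.

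The balance between genomes was taken as summed TPM of the 6 mitochondrial members over that of the 36 nuclear members of complexes III to V. It was 0.363, 0.428 and 0.474 in sham pools 1 to 3 and 0.43, 0.327 and 0.367 in nano-TiO2 pools 1 to 3. The groups overlapped, sham 3 was the highest and nano-TiO2 2 the lowest, and the mean log2 ratio went from -1.25 ± 0.19 in sham to -1.42 ± 0.20 in nano-TiO2 hearts (SD, n = 3 each). With near-identical copies added, the difference of -0.17 became -0.21.

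Lower fold changes went with shorter transcripts. Of the 41 nuclear members, 35 were in the shortest quintile of tested genes (111 to 1373 bases), where 33.2% of all genes fell, with a median log2 fold change of -0.43. Of those 35 members 23 fell, and their median was -0.68. In the longest quintile, which held no member, 38.9% of all genes rose, with a median of 0.61. Across the 41 nuclear members Pearson's r of log2 fold change with log2 length was 0.67, and across all 13928 genes it was 0.48; genes are not independent replicates. Sdha, at 2841 bases, and Uqcrc2, at 1887 bases, are among the longest members, as are Atp5a1 (2452 bases) and Cycs (3047 bases). With the trend over length and GC of each library removed, the nuclear median was -0.14 and that of the mitochondrial members -0.52, and 17 members changed sign. The part of length and GC in the falls was not tested beyond this.

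**Figure D5:**
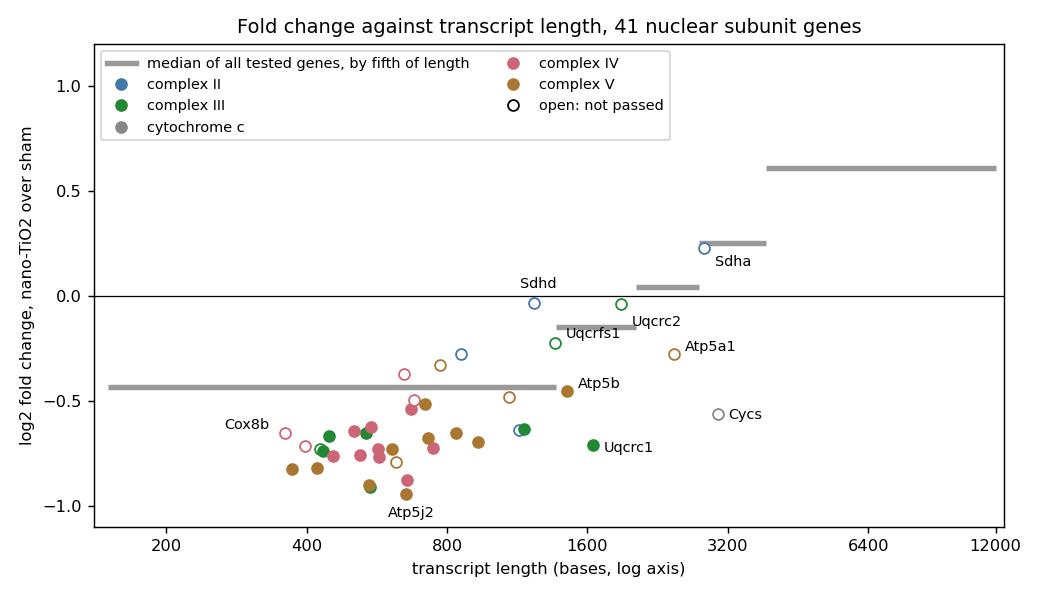
Log2 fold change of nano-TiO2 over sham (y axis, TMM scaling) against transcript length in bases (x axis, log scale) for the 41 nuclear subunit genes; filled points passed the test, colours are complexes, and grey lines are medians of all tested genes in each quintile of length, the outermost ones cut short. The grey medians climb from -0.43 to 0.61, and 35 of the 41 subunits lie in the shortest quintile.

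Of the 41 nuclear members, 32 had reads assigned to non-coding transcripts of the same gene. The share of such reads was higher in all nano-TiO2 libraries than in all sham libraries for 7 of the 32, as in 15.5% of the 9588 genes with reads on both kinds of transcript, and lower for 0, against 3.88% of those genes. In Sdhb they were 0.15% ± 0.0426 of its reads in sham and 0.633% ± 0.131 in nano-TiO2 hearts, and in Cox7b 37.1% ± 2.66 and 40.7% ± 0.671 (SD, n = 3 each). With protein-coding transcripts only, 26 members fell and 0 rose, where 11.1% of all genes fell and 13.8% rose.

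Other genes of the chain were counted from lists in the same edgeR fit. Of 7 tested other subunits and inhibitors of complexes II to V, 4 fell and 0 rose (12.8% and 15.5% of all genes), among them Atpif1, the inhibitor of ATP synthase hydrolysis (log2 fold change -0.74 ± 0.14 (SE), adjusted p = 0.0103, 869 ± 80.8 against 520.4 ± 66.7 CPM (SD, n = 3 each)), and Usmg5, a small ATP synthase subunit (log2 fold change -0.92 ± 0.18 (SE), adjusted p = 0.0105, 441 ± 62.3 against 233 ± 46.4 CPM (SD, n = 3 each)). Of 36 nuclear complex I subunits 24 fell and 0 rose on TMM scaling, with a median of -0.65, led by Ndufa3 (log2 fold change -0.80 ± 0.14 (SE), adjusted p = 0.00851, 277 ± 21.4 against 159 ± 22.4 CPM (SD, n = 3 each)) and Ndufv3 (log2 fold change -0.70 ± 0.13 (SE), adjusted p = 0.00955, 434 ± 19.8 against 267 ± 33.4 CPM (SD, n = 3 each)). Of 7 mitochondrial complex I genes 0 fell and 0 rose by edgeR (1 was lower and 0 higher at an unadjusted p under 0.05) and 2 were lower by DESeq2, with mt-Nd1 at -0.81 (adjusted p = 0.0988) and mt-Nd4 at -0.72 (adjusted p = 0.123). With library totals, 0 of the 36 nuclear complex I subunits fell by edgeR (4 were lower at an unadjusted p under 0.05) and 1 rose, with a median of -0.25. On log2(TPM + 1), 0 fell by limma (0 at an unadjusted p under 0.05) and 1 rose, with a median of 0.02. Of the 7 other subunits and inhibitors, 1 fell with library totals and 0 in TPM (0 at an unadjusted p under 0.05). After removal of length and GC trends, 2 of the 7 other subunits and 3 of the 36 complex I subunits fell, where 2.18% of all genes did. Without sham 2 and nano-TiO2 3, 0 fell by edgeR, and 5 of the 7 and 25 of the 36 were lower at an unadjusted p under 0.05.

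Assembly factors were mixed on TMM scaling, where 12.8% of all genes fell and 15.5% rose, and with library totals and in TPM none fell. Of 11 factors for complexes II and III, 3 fell and 1 rose, with Sdhaf1 (log2 fold change -0.55 ± 0.12 (SE), adjusted p = 0.0141, 60.2 ± 0.746 against 41.2 ± 1.93 CPM (SD, n = 3 each)) and Uqcc2 (log2 fold change -0.87 ± 0.19 (SE), adjusted p = 0.0156, 263 ± 56.2 against 144 ± 26.9 CPM (SD, n = 3 each)) having the smallest p. For complex IV, 9 of 23 fell and 2 rose, with Higd2a (log2 fold change -0.68 ± 0.14 (SE), adjusted p = 0.0117, 212 ± 20.5 against 133 ± 15.5 CPM (SD, n = 3 each)) and Pet100 (log2 fold change -0.88 ± 0.20 (SE), adjusted p = 0.0154, 49.5 ± 9.39 against 26.8 ± 4.81 CPM (SD, n = 3 each)) in front. For complex V, 2 of 5 fell and 1 rose, and Fmc1 (log2 fold change -0.79 ± 0.20 (SE), adjusted p = 0.0237, 196 ± 32.4 against 113 ± 27.9 CPM (SD, n = 3 each)) and Oxa1l (log2 fold change -0.36 ± 0.11 (SE), adjusted p = 0.0378, 105 ± 3.73 against 81.3 ± 2.29 CPM (SD, n = 3 each)) were the ones that fell. With library totals, 0 factors fell by edgeR (1 for complexes II and III, 1 for complex IV and 0 for complex V at an unadjusted p under 0.05), while 2, 5 and 2 rose, where 30.7% of all genes did. On log2(TPM + 1), 0 fell by limma (0 at an unadjusted p under 0.05), while 2, 4 and 2 rose, where 38% of all genes did. After removal of length and GC trends, 3 of the factors for complexes II and III fell and 0 rose, 1 for complex IV fell and 1 rose, and 0 for complex V fell and 1 rose. Without sham 2 and nano-TiO2 3, none of these passed edgeR's test, and 3, 7 and 1 were lower at an unadjusted p under 0.05.

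Of 26 regulators of mitochondrial biogenesis, 0 fell by edgeR (1 at an unadjusted p under 0.05, and 1 by DESeq2) and 7 rose on TMM scaling, where 15.5% of all genes rose, and their median was 0.04. They were Gabpb2, a subunit of the ETS factor GABP (log2 fold change 1.17 ± 0.23 (SE), adjusted p = 0.0115, 4.79 ± 0.789 against 10.9 ± 2.25 CPM (SD, n = 3 each)), the muscle transcription factor Mef2c (log2 fold change 1.08 ± 0.23 (SE), adjusted p = 0.0129, 40.3 ± 5.99 against 85.4 ± 26.5 CPM (SD, n = 3 each)), Mef2a, Yy1, Esrrg, Gabpa and the coactivator Ppargc1a; the last 5 are named because the 7 are few, after their values were seen. Their transcripts are long, from 2340 bases in Mef2c to 6309 in Gabpb2. After removal of length and GC trends, 0 of 26 rose by edgeR (4 were higher at an unadjusted p under 0.05), where 1.48% of all genes rose, and without sham 2 and nano-TiO2 3 also 0 (6 at an unadjusted p under 0.05). With library totals 11 rose, where 30.7% of all genes did. The 2 mitochondrial rRNA genes of the list were not analysed here.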

How the data were processed

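RNA abundance was measured in 6 input libraries of pooled fetal hearts, 3 per group, with groups and numbers taken from the titles. The deposited files give estimated counts of reads per transcript, which come from Salmon (per the file headers) and are not scaled, and TPM values that, per the file headers, Salmon derived from reads and effective lengths. The deposited table of the series gives a signal per bin of a gene, reads divided by 1 size factor per library, and undoing that division gave whole reads for 100% of its values (tolerance 0.001). HISAT2 2.2.1, Salmon 1.5.2, DESeq2 1.34.0 and GRCm39 are named, with no role, in the submitters' processing notes. How the table was counted, and on which strand, is not given in the sources used here. Symbols, lengths and GC came from GENCODE M21 (GRCm38), so gene coordinates are not given. Of 116747 transcripts 115636 matched by ID and 1111 were left out.

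Estimated counts were summed per gene and rounded, and ranged from 12881945 to 22720009 per library. Groups were compared with edgeR 4.0.16 (R 4.3.3), robust quasi-likelihood test, TMM, filterByExpr, group as the only term, at a Benjamini-Hochberg adjusted p under 0.05 over 13928 genes. Adjusted p-values are from that test unless limma 3.58.1 or another tool is named. CPM use TMM scaling, and the biological coefficient of variation was 23.9%. Isoform ratios were compared with an exact permutation test over libraries (scipy 1.17.1). The trend over length and GC was fitted with mgcv 1.9.3. Near-identical copies are transcripts of other genes that share at least 80% of their 31-base words with a member. Promoter sequences came from RefSeq (GRCm38.p6). The scripts were tested on simulated counts.

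Alternatives covered scaling by RLE, by upper quartiles or by library totals, DESeq2 1.42.0, limma-voom, no filter, a filter at a mean of 10 reads plus over 1 CPM in 3 libraries, limma on TPM (pseudocounts of 1 and 0.1, genes averaging 1 TPM or more), a block for replicate number, leaving out each library, trend removal, leaving out mitochondrial, haemoglobin and rRNA genes, reads of the bin table, and copies. Values in every library are given for the 6 mitochondrial members, the 6 isoform genes, 7 core subunits and up to 4 called members with the smallest p of each complex; of each further list up to 2 members with the smallest p are named. The members, lists, markers and alternatives were chosen with earlier results of these data known.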

Additional observations from a re-analysis of the deposited data

How the results depend on the processing

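Settings that were chosen with earlier results of these data known gave 25 to 28 members lower and 0 higher. They were RLE factors (28, where 13.2% of all genes were lower), upper-quartile factors (25, 9.41%) and limma-voom (28, 12.9%). No filter (26, 6.92%), a stricter filter (28, 13.6%) and copies named by a member's symbol plus -ps added (27, 12.8%) were the others. Over these settings 8.93% to 17.4% of all genes were higher. The -ps setting left out copies with other names, such as Gm28437 and Gm10925, so it cannot speak to their reads. DESeq2 gave 34, where 17.3% of all genes were lower. Reads of the bin table gave 24, where 11.2% of all genes were lower. Nuclear members alone gave 25 of 41 without mitochondrial, haemoglobin and rRNA genes, where 12.9% were lower. With library totals only, 1 member was lower and 1 higher. With limma on log2(TPM + 1) and on log2(TPM + 0.1), 0 members were lower (0 at an unadjusted p under 0.05) and 3 higher. After removal of length and GC trends, 1 was lower. The cause of these differences was not tested. Alternatives added after seeing the data were near-identical copies added (27 lower), protein-coding transcripts only (26 lower) and sham 2 and nano-TiO2 3 both left out (0 lower by edgeR, 27 at an unadjusted p under 0.05), which leaves fewer libraries. Leaving out 1 library in turn gave 9 to 23 members lower, where 2.52% to 14.6% of all genes were lower.

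The replicate numbers of the titles are shared by both groups, and same-numbered libraries correlated at -0.39, 0.02 and -0.08 in their deviations from the group means, so the numbers were not taken to pair the pools. Differently numbered libraries ran from -0.41 (sham 3 with nano-TiO2 2) to 0.48 (sham 3 with nano-TiO2 1). Sham 1 with nano-TiO2 2 stood at 0.42. Some pools thus shared deviations across the groups, and the source of these was not tested. With the replicate number as a block, 20 members were lower instead of 27 and 0 higher, and 5.72% of all genes were lower instead of 12.8%.

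Fold changes of single members that changed sign on the log2 scale were as follows. After removal of length and GC trends they were Sdha -0.19, Sdhc 0.25, Uqcrq 0.22, Uqcr10 0.15, Uqcr11 0.32, Cox4i1 0.051, Cox6a1 0.16, Cox6a2 0.069, Cox7a1 0.14, Cox8a 0.31, Cox8b 0.27, Atp5d 0.003, Atp5e 0.031, Atp5g1 0.10, Atp5g2 0.084, Atp5j 0.32 and mt-Atp8 0.14. With library totals only they were Sdhc 0.13, Sdhd 0.37, Uqcrc2 0.36, Uqcrfs1 0.18, Cox5a 0.041, Atp5a1 0.13 and Atp5j 0.080. On log2(TPM + 1) they were Sdhb 0.064, Sdhc 0.39, Sdhd 0.61, Uqcrc2 0.59, Uqcrfs1 0.40, Cyc1 0.023, Cycs 0.075, Cox5a 0.25, Cox5b 0.10, Cox6a2 0.13, Cox8a 0.081, Atp5a1 0.37, Atp5b 0.28, Atp5c1 0.18, Atp5g2 0.016, Atp5g3 0.14, Atp5j 0.30 and Atp5o 0.021. On log2(TPM + 0.1) they were Sdhb 0.064, Sdhc 0.39, Sdhd 0.61, Uqcrc2 0.59, Uqcrfs1 0.40, Cyc1 0.023, Cycs 0.076, Cox5a 0.25, Cox5b 0.11, Cox6a2 0.13, Cox8a 0.081, Atp5a1 0.37, Atp5b 0.28, Atp5c1 0.18, Atp5g2 0.016, Atp5g3 0.14, Atp5j 0.30 and Atp5o 0.021. In the bin table they were Sdhd 0.034 and Uqcrc2 0.019, and with upper-quartile factors Sdhd 0.024 and Uqcrc2 0.019. Without sham 3 they were Sdhd 0.12 and Uqcrc2 0.28, and without nano-TiO2 2 Sdhd 0.12 and Uqcrc2 0.14; over all 6 libraries left out in turn, Sdhd ran from -0.13 to 0.12 and Uqcrc2 from -0.21 to 0.28.

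Leaving out 1 library in turn, the difference in log2 ratio ran from 0.056 to 0.44 for Cox6a2, from -0.008 to 0.32 for Cox7a1 and from -0.37 to 0.26 for Cox8b, and that of the mitochondrial to nuclear ratio from -0.28 to -0.078. The isoform differences kept their sign with estimated reads, a pseudocount of 1 and the bin table. Estimated reads and the bin table gave -0.14 and -0.21 for the mitochondrial to nuclear ratio. With 12881945 to 22720009 estimated reads per library, the lowest value of a member was 44.3 CPM (Cox8b, nano-TiO2 2).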
